A study of Mus musculus with 12 samples.

Results

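The genes described here are 40 genes of the hypoxia response and of glycolysis, taken by symbol from a fixed list and found, all 40, among the 17723 genes of the deposited count table. The list of 40 genes was chosen with earlier results of these data known. By role, 8 encode the hypoxia-inducible factors (HIFs) and the proteins that regulate them, 16 are glycolytic enzymes, 5 are transporters and regulatory kinases of glycolysis, and 11 are other genes that HIF is known to induce. They were measured by bulk RNA seq in bone marrow-derived macrophages (BMDMs), which are grown in M-CSF from marrow of the femurs and tibias, here of wild-type C57Bl/6J mice 8 to 10 weeks old. Cultures were treated for 24 h with IL-13 (2 ng/ml) together with DKK1 (30 ng/ml), with DKK1 alone, with IL-13 alone, or were left untreated, with 3 libraries in each of the 4 groups. DKK1 is a secreted antagonist of Wnt signalling that platelets release, and IL-13 is a type 2 cytokine that drives alternative activation of macrophages. The paper asked whether DKK1 by itself, and on top of IL-13, changes the gene expression of macrophages.

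A HIF is a pair of an oxygen-regulated alpha subunit and the constant subunit ARNT. In the presence of oxygen, prolyl hydroxylases of the EGLN family mark the alpha subunit, the VHL protein binds the marked form and it is degraded, while in hypoxia it persists, enters the nucleus and binds short hypoxia response elements (HREs) near its target genes. The targets include glucose transporters and most steps of glycolysis, and in macrophages HIF-1 is also known to be induced at the mRNA level by inflammatory signals at normal oxygen. RNA seq reads mRNA and not the stability of the HIF protein, so the values below are mRNA levels only. The oxygen level was not a variable of the design.

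The 12 libraries held between 32224036 and 40917086 counts each (median 35148109). Levels are given as CPM, counts scaled to a common library total, after TMM scaling. All 40 genes passed the filter on low counts that left 16306 genes for testing. A gene was called when the edgeR quasi-likelihood test gave an adjusted p under 0.05 over all genes tested and the absolute log2 fold change was above 1, and "rose" and "fell" are used of called genes. Genes that passed the adjusted p alone are named as such. The macrophage markers were all in the table (10 of 10). Their summed level was 34640 to 35700 CPM with IL-13+DKK1 and 45300 to 46080 CPM with DKK1. It was 20080 to 21160 CPM with IL-13 and 28340 to 28970 CPM in untreated cells. Lyz2 was the largest part in every group, on average 23210, 32170, 11170 and 17040 CPM in the same order. Both with and without IL-13, Cd68, Mertk and Spi1 averaged lower with DKK1 and the other listed macrophage markers higher. Summed over 9 neutrophil markers the level was 692 to 851 CPM with IL-13+DKK1, 458 to 485 CPM with DKK1, 455 to 670.0 CPM with IL-13 and 676 to 752 CPM in untreated cells, and so was higher with IL-13+DKK1 than with IL-13 and lower with DKK1 than in untreated cells. The megakaryocyte and platelet list reached 3866 to 4058 CPM with IL-13+DKK1 and 2187 to 2568 CPM with DKK1, against 357 to 397 CPM with IL-13 and 186 to 220.2 CPM in untreated cells. That sum was carried by the chemokine genes Pf4 and Ppbp, while Gp9 was not in the table and Itga2b and Gp1ba stayed at or under 1.89 CPM on average in every group. Mast cell and basophil markers (0 of 4 in the table) and all erythroid markers but Klf1 were not in the table. The part of the macrophage, neutrophil and platelet markers in the results was not tested. In bulk samples, fewer cells of a type and less RNA per cell cannot be told apart.

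HREs share the core letters RCGTG, where R is A or G, so the promoter windows of the genes were searched for ACGTG and GCGTG on both strands. A window ran from 250 bases before to 50 bases after the start site of the GENCODE vM39 canonical transcript on GRCm39, and the letters CACGTG count as 2 matches of ACGTG because they read the same on both strands. At least 1 core was found in 29 of the 40 windows (72.5%), against 59.4% of the 13091 windows of protein-coding genes in the count table. ACGTG was found in 23 of 40 (57.5%), against 25.2%, and GCGTG in 20 of 40 (50%), against 47.6%. Many of the 40 genes were listed because HIF is known to induce them. The shares beside those of all genes, in these windows and in RefSeq's, therefore describe the list and do not test the response to DKK1. In RefSeq's windows on GRCm38.p6, matched by symbol for 37 of the 40 genes and tried after the first result was known, ACGTG was in 21 of 37 (56.8%), against 25.2% of 11222. Of the 10 genes called higher by DKK1 without IL-13, 7 had ACGTG in the window, and 16 of the other 30 had it too. A match is a run of letters and not a bound site, and genes with several start sites have other windows than these.

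The windows of 4 genes that rose with DKK1 both with and without IL-13 and that hold ACGTG are shown 5′ to 3′ on the strand of the gene, with the cores of either strand in capitals, to show where the letters stand in them. Bnip3 (chr7:138511204-138511503, minus strand) held 5 cores, Hif1a (chr12:73954320-73954619, plus strand) 3, Ddit4 (chr10:59787613-59787912, minus strand) 2 and Egln3 (chr12:54250624-54250923, minus strand) 1. Ldha (chr7:46495013-46495312, plus strand) is added after its values were seen, because its 8 cores were the highest number among the 40 windows.
Bnip3: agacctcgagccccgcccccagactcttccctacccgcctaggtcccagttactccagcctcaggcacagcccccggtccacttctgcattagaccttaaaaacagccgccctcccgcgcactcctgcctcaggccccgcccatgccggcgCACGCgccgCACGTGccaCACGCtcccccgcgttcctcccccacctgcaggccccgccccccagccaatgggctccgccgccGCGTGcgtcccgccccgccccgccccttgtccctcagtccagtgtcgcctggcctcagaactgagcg
Hif1a: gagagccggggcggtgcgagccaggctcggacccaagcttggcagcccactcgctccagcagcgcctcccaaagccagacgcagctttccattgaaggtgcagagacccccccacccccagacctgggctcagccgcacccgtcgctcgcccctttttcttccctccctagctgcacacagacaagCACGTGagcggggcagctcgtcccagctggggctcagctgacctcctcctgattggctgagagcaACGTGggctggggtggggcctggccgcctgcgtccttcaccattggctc
Ddit4: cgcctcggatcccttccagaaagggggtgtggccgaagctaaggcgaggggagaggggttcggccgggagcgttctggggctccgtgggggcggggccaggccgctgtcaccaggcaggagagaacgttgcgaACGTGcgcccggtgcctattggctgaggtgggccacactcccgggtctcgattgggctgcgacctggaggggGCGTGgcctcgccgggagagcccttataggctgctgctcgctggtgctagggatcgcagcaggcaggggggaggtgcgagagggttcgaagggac
Egln3: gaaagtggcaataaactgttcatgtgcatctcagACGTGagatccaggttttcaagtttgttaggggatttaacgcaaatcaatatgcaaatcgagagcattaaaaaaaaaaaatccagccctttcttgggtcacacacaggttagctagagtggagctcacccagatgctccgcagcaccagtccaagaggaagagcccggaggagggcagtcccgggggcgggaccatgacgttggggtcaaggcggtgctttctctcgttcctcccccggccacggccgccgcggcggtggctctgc
Ldha: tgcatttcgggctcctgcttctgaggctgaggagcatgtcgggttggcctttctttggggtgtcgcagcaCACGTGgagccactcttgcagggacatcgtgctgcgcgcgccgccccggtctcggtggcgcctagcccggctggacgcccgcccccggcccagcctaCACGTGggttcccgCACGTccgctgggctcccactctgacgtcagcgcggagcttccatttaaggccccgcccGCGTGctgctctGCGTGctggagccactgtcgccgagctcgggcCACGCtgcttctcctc
CACGTG stood in the windows of Bnip3 and Hif1a and at 2 places in that of Ldha. Of the other 3 of the 7 genes that rose in both comparisons, Slc16a3 held 1 GCGTG, and Pfkl and Pfkfb3 held neither core.

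**Figure D1:**
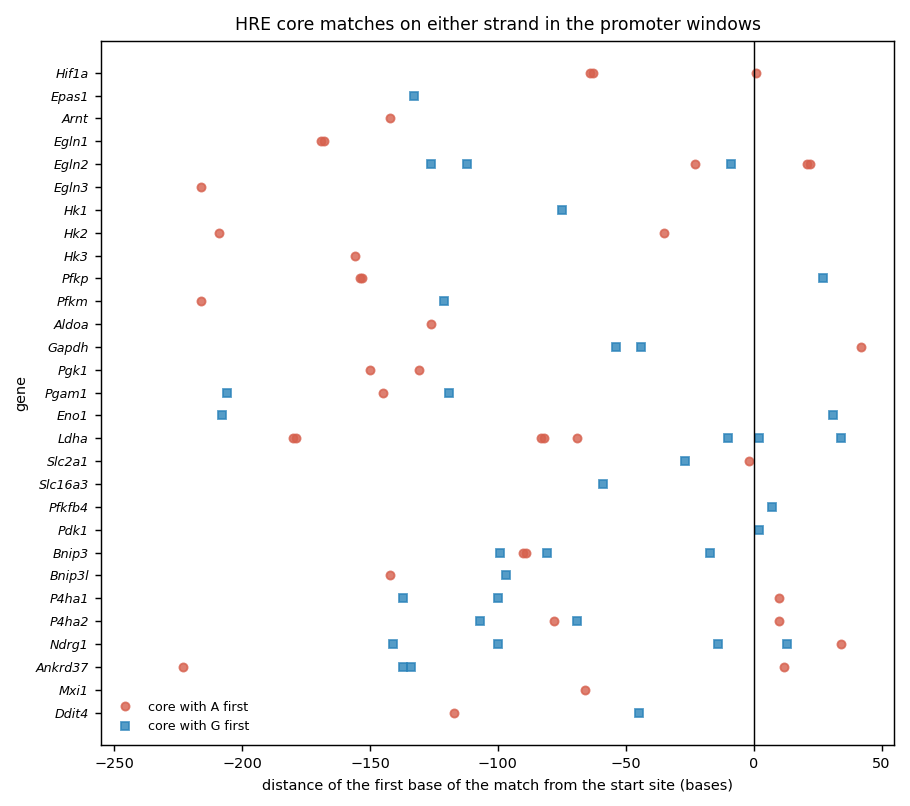
Positions of the HRE core letters, on either strand, in the 29 promoter windows that held at least 1, one gene per row, with the distance from the start site in bases on the x axis. Circles mark the core that begins with A and squares the core that begins with G, and Ldha has the most matches, 8, while 11 of the 40 genes have none and are not drawn.

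With DKK1 alone, 10 of the 40 genes rose and 1 fell against untreated cells, where over all genes 5.18% rose and 6.46% fell. As the 40 genes were chosen with earlier results known, the shares of all genes are given for description and not as a test. By the adjusted p alone 29 were higher and 5 lower, against 22.6% and 23.0% of all genes. With IL-13 in both groups, DKK1 raised 9 of 40 and lowered 1 (IL-13+DKK1 against IL-13), where 4.66% and 6.10% of all genes were called. Here 32 were higher and 6 lower by the adjusted p alone, against 22.5% and 21.9%. These comparisons share no library. The log2 fold changes had the same sign in both for 38 of 40 genes (69.0% of all genes), and 7 of 40 were called higher in both (2.7% of all genes), namely Hif1a, Egln3, Pfkl, Slc16a3, Pfkfb3, Bnip3 and Ddit4. The median log2 fold change of the 40 genes was 0.52 with DKK1 alone and 0.59 with DKK1 on top of IL-13, beside medians of -0.04 and 0.00 over all genes tested.

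Over the 40 genes together, the comparisons of IL-13 gave more lower than higher calls. With IL-13 alone 1 of 40 rose and 3 fell, where 4.64% and 3.49% of all genes were called. By the adjusted p alone 11 were higher and 17 lower (23.9% and 23.2% of all genes). The roles differed here, with 9 of 16 glycolytic enzymes higher and 4 lower, and 2 and 2 of 5 transporters and kinases. Of the 8 HIF regulators 0 were higher and 4 lower, and of the 11 other HIF targets 0 and 7. With DKK1 in both groups, 4 of 40 fell with IL-13+DKK1 against DKK1 (2.29% of all genes) and 0 were called higher (3.22% of all genes). By the adjusted p alone 7 were higher and 17 lower (20.2% and 19.1% of all genes). Beside the 0 higher, edgeR gave 8 at an unadjusted p under 0.05 (23.7% of all genes), and DESeq2 also called 0. With both cytokines against untreated cells 9 of 40 rose and 2 fell, where 5.24% and 6.59% of all genes were called, and by the adjusted p alone 24 were higher and 9 lower (26.0% and 23.5% of all genes). In all, 18 of the 40 were called in at least 1 of the 5 comparisons and 22 in none.

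**Figure D2:**
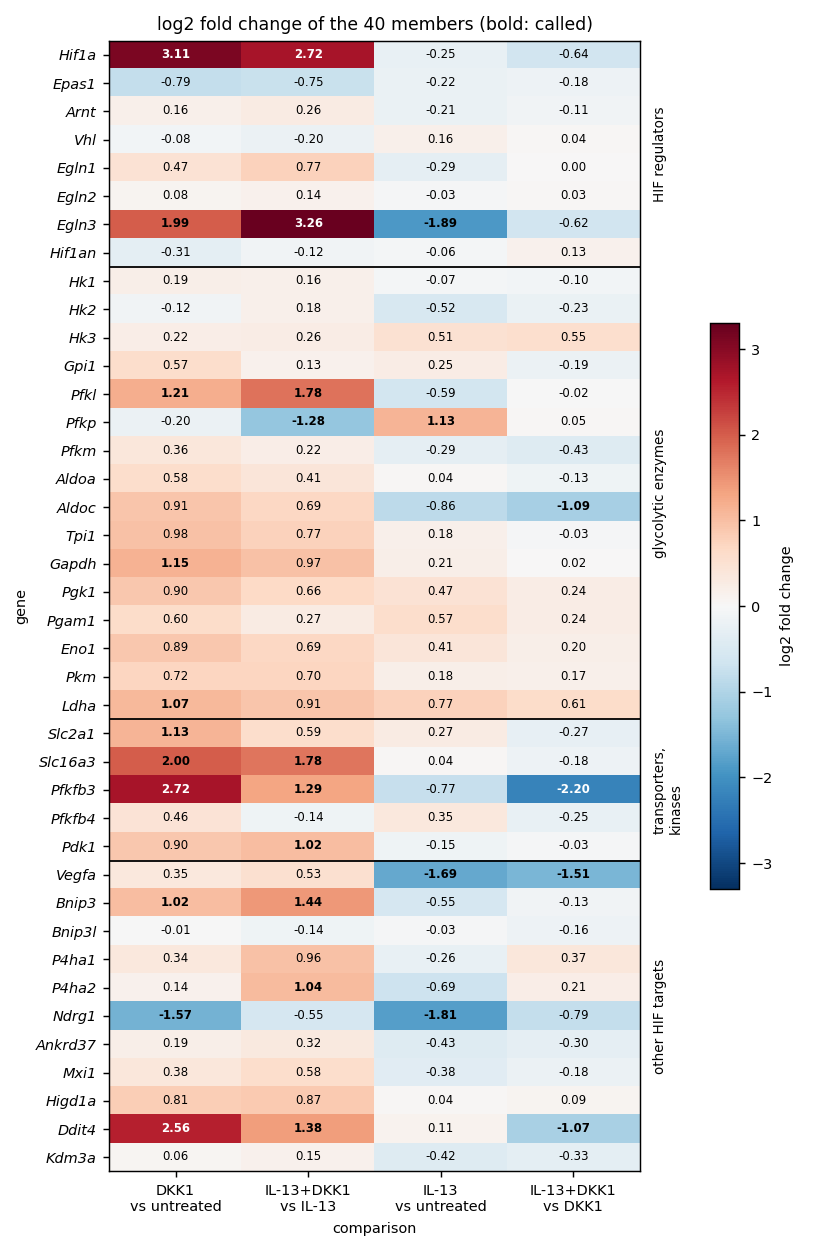
Log2 fold change of each of the 40 genes (rows, by role) in 4 comparisons (columns), with red for higher and blue for lower in the first-named group and bold figures for called genes. The glycolytic enzymes are red in nearly every row of the 2 columns for DKK1, with Pfkp at -0.20 and -1.28 and Hk2 at -0.12 in DKK1 vs untreated as the exceptions.

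Among the HIF regulators, the mRNA of the alpha subunit Hif1a and of the prolyl hydroxylase Egln3 rose with DKK1, and the other 6 stayed within the fold threshold. Hif1a, which lies on chromosome 12 from 73948149 to 73996321, had 385, 407 and 414 CPM with IL-13+DKK1, 662, 612 and 609 CPM with DKK1, 57.5, 57.4 and 68.0 CPM with IL-13, and 75.3, 72.7 and 70.2 CPM in untreated cells. The 6 libraries with DKK1 lay far above the 6 without it, and those with DKK1 alone above those with both. This was an 8.63-fold level with DKK1 against untreated cells, a log2 fold change of 3.11 (SE 0.06, edgeR adjusted p = 2.97e-20), and 6.59-fold with IL-13+DKK1 against IL-13 (log2 fold change 2.72, SE 0.06, edgeR adjusted p = 2.2e-19). IL-13 gave small log2 fold changes that passed the adjusted p, -0.25 alone and -0.64 with DKK1 present. Epas1, the alpha subunit of HIF-2, had 2.60, 2.91 and 2.32 CPM with IL-13+DKK1, 2.48, 3.40 and 3.003 CPM with DKK1, 3.34, 4.502 and 5.29 CPM with IL-13, and 4.71, 6.06 and 4.61 CPM in untreated cells. Its log2 fold change was -0.79 (SE 0.18, edgeR adjusted p = 0.00125) with DKK1 and -0.75 (SE 0.19, edgeR adjusted p = 0.00223) with DKK1 on top of IL-13, past the adjusted p and in the other direction from Hif1a. Per kilobase of transcript, Hif1a made up 99.2% ± 0.0990 of the summed level of both alpha subunits with IL-13+DKK1, 99.4% ± 0.113 with DKK1, 91.9% ± 1.22 with IL-13 and 92.0% ± 1.17 in untreated cells (SD, n = 3 each).

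Egln3, one of the hydroxylases that mark HIF for degradation and itself a well known HIF target, had 9.10, 7.85 and 7.35 CPM with IL-13+DKK1, 10.2, 13.1 and 14.1 CPM with DKK1, 0.477, 0.879 and 1.15 CPM with IL-13, and 3.48, 2.52 and 3.38 CPM in untreated cells. It was low in every group, and its libraries with DKK1 lay above those without it in both comparisons. Its log2 fold change was 1.99 (SE 0.18, edgeR adjusted p = 3.93e-09) with DKK1 alone and 3.26 (SE 0.22, edgeR adjusted p = 2.8e-11) with DKK1 on top of IL-13, and it fell with IL-13 alone by 1.89 on the log2 scale (SE 0.23, edgeR adjusted p = 6.26e-07). The hydroxylase Egln1 had 64.0, 60.6 and 59.1 CPM with IL-13+DKK1, 59.4, 60.3 and 63.8 CPM with DKK1, 38.0, 31.5 and 38.6 CPM with IL-13, and 44.6, 44.0 and 43.9 CPM in untreated cells. Its log2 fold changes with DKK1, 0.47 without and 0.77 with IL-13, passed the adjusted p but not the fold. Egln2, the hydroxylase with the highest level per kilobase of the 3, had 87.5, 84.0 and 85.5 CPM with IL-13+DKK1, 86.1, 79.8 and 85.9 CPM with DKK1, 81.7, 76.4 and 75.1 CPM with IL-13, and 80.8, 76.7 and 81.1 CPM in untreated cells. Its log2 fold change was 0.08 with DKK1 (edgeR adjusted p = 0.171) and 0.14 with DKK1 on top of IL-13 (edgeR adjusted p = 0.0134). Exons of Cyp2t4 on the other strand overlap Egln2. Egln3 took 5.27% ± 0.445 of the summed level per kilobase of the 3 hydroxylases with IL-13+DKK1, 8.004% ± 1.26 with DKK1, 0.697% ± 0.296 with IL-13 and 2.39% ± 0.340 in untreated cells (SD, n = 3 each).

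The remaining regulators differed little between groups. Arnt, the constant partner of the alpha subunits, had 79.0, 80.5 and 81.4 CPM with IL-13+DKK1, 86.4, 90.03 and 83.03 CPM with DKK1, 64.0, 68.9 and 67.9 CPM with IL-13, and 78.3, 77.9 and 76.8 CPM in untreated cells. Its log2 fold change was 0.16 with DKK1 and 0.26 with DKK1 on top of IL-13, both past the adjusted p. Vhl, which encodes the substrate-binding part of the ubiquitin ligase for HIF, had 33.4, 30.6 and 33.4 CPM with IL-13+DKK1, 29.1, 33.4 and 32.4 CPM with DKK1, 34.4, 37.6 and 39.8 CPM with IL-13, and 34.3, 32.7 and 33.3 CPM in untreated cells. The libraries with DKK1 overlapped the untreated ones and the log2 fold change was -0.08 (edgeR adjusted p = 0.366). With DKK1 on top of IL-13 it was -0.20 (edgeR adjusted p = 0.0168), and those libraries lay below the ones with IL-13 alone. Hif1an, the asparagine hydroxylase that blocks the transactivation domain of HIF, had 47.0, 48.0 and 45.5 CPM with IL-13+DKK1, 40.2, 45.1 and 42.8 CPM with DKK1, 52.0, 52.0 and 49.2 CPM with IL-13, and 53.3, 55.7 and 50.4 CPM in untreated cells. It had a log2 fold change of -0.31 with DKK1, which passed the adjusted p, and of -0.12 with DKK1 on top of IL-13, which did not (edgeR adjusted p = 0.0718).

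**Figure D3:**
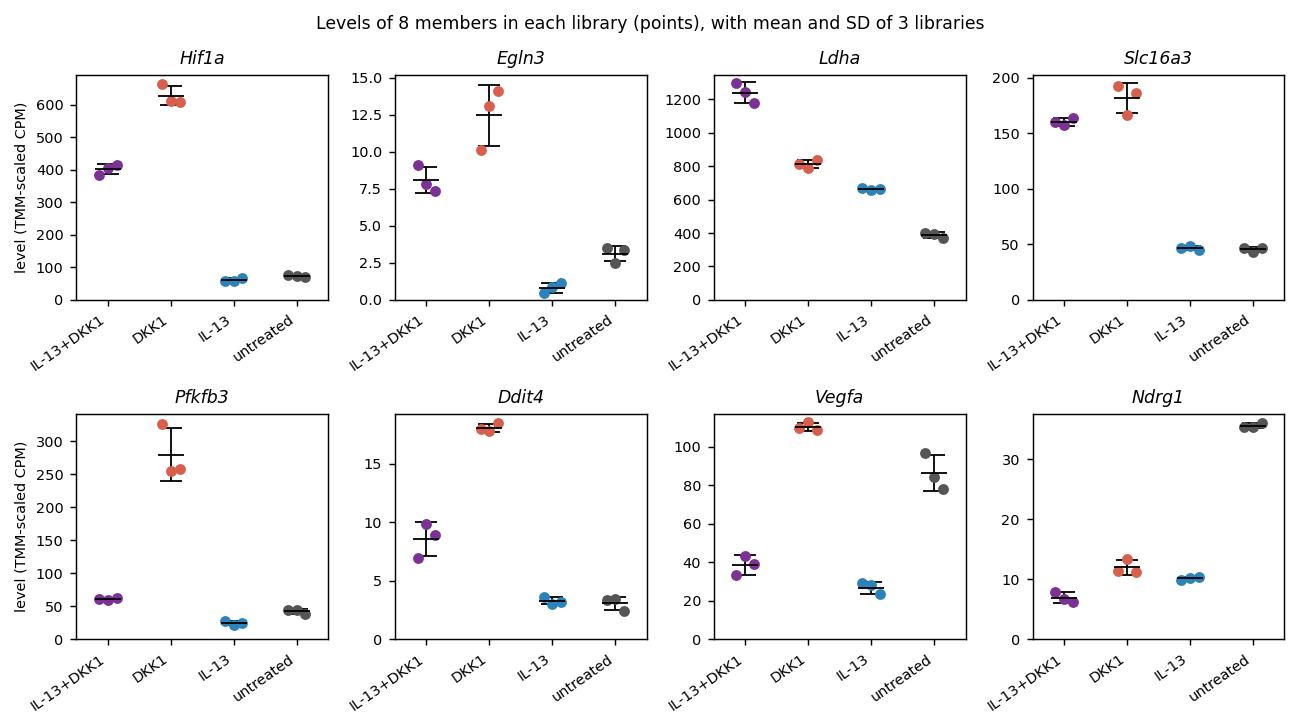
Level in TMM-scaled CPM (y axis, from 0) of 8 genes in each of the 12 libraries, as points by group, with the mean and the SD of 3 libraries. Hif1a, Slc16a3, Pfkfb3, Ddit4 and Egln3 are higher in the groups with DKK1 than in the matching groups without it, Vegfa is lower in both groups with IL-13, and Ndrg1 is highest in untreated cells.

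Most of the 16 glycolytic enzymes were higher with DKK1, the majority by less than the fold threshold. With DKK1 alone, 14 were higher and 2 lower (Hk2 and Pfkp) by the adjusted p (22.6% and 23.0% of all genes). Pfkl, Gapdh and Ldha rose (5.18% of all genes). With DKK1 on top of IL-13, 15 were higher and 1 lower by the adjusted p (22.5% and 21.9% of all genes). Pfkl was called higher and Pfkp lower (4.66% and 6.10% of all genes). The same 14 enzymes passed the adjusted p upward in both (14.2% of all genes). The median log2 fold change of the 16 was 0.66 with DKK1 alone and 0.54 with DKK1 on top of IL-13. The summed level of the 16 enzymes was 9640.3, 9209 and 9024 CPM with IL-13+DKK1, 8696, 8293 and 8802 CPM with DKK1, 6418, 6141 and 6207 CPM with IL-13, and 5351, 5286 and 5406 CPM in untreated cells. The 6 libraries with DKK1 lay above the 6 without it, and those with IL-13 alone above the untreated ones.

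At the entry of the pathway, the hexokinases, which phosphorylate glucose, moved little. Hk1 had log2 fold changes of 0.19 with DKK1 alone and 0.16 with DKK1 on top of IL-13, Hk2 of -0.12 and 0.18, and Hk3 of 0.22 and 0.26. Hk2, the form that HIF-1 is known to induce, averaged 116 ± 2.41 CPM with IL-13+DKK1, 136 ± 4.12 CPM with DKK1, 103 ± 4.75 CPM with IL-13 and 148 ± 2.39 CPM in untreated cells (SD, n = 3 each). Hk3 held the largest share of the hexokinases per kilobase in every group, 74.8% ± 0.702 with IL-13+DKK1, 64.8% ± 0.706 with DKK1, 73.6% ± 0.393 with IL-13 and 62.6% ± 0.585 in untreated cells (SD, n = 3 each). Gpi1, the isomerase that follows, had log2 fold changes of 0.57 with DKK1 and 0.13 with DKK1 on top of IL-13.

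The 3 phosphofructokinase genes, whose enzyme commits sugar to glycolysis, did not move alike. Pfkl, the liver form, had 226, 226 and 221 CPM with IL-13+DKK1, 229, 222 and 232 CPM with DKK1, 68.4, 63.3 and 64.2 CPM with IL-13, and 101, 96.9 and 97.9 CPM in untreated cells. It rose with DKK1 alone (log2 fold change 1.21, SE 0.04, edgeR adjusted p = 6.5e-17) and on top of IL-13 (log2 fold change 1.78, SE 0.04, edgeR adjusted p = 3.99e-19), and its libraries did not overlap in either comparison. Exons of Cfap410 on the other strand overlap 5126 of the 12881 exon bases of Pfkl. The strand setting of the counting is not given in the sources used here. Pfkp, the platelet form, had 50.5, 51.6 and 51.7 CPM with IL-13+DKK1, 51.2, 50.7 and 47.1 CPM with DKK1, 121, 128 and 124 CPM with IL-13, and 56.9, 57.9 and 56.3 CPM in untreated cells. The libraries with IL-13 alone stood above all others, and Pfkp rose with IL-13 (log2 fold change 1.13, SE 0.04, edgeR adjusted p = 6.56e-15) and fell with IL-13+DKK1 against IL-13 (log2 fold change -1.28, SE 0.04, edgeR adjusted p = 4.09e-16), while with DKK1 alone its log2 fold change was -0.20. Exons of Pitrm1 on the other strand overlap 1831 of the 16462 exon bases of Pfkp. Pfkm, the muscle form, had log2 fold changes of 0.36 and 0.22 with DKK1 without and with IL-13.

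As a share of the summed level per kilobase of the 3 genes, Pfkl was 75.5% ± 0.596 with IL-13+DKK1, 74.1% ± 0.868 with DKK1, 31.9% ± 1.48 with IL-13 and 55.3% ± 0.432 in untreated cells (SD, n = 3 each). Pfkp was 16.4% ± 0.273, 15.4% ± 0.763, 58.0% ± 1.44 and 30.5% ± 0.626 in the same groups. Pfkp was the most abundant of the 3 per kilobase with IL-13 alone, and Pfkl in the other 3 groups.

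**Figure D4:**
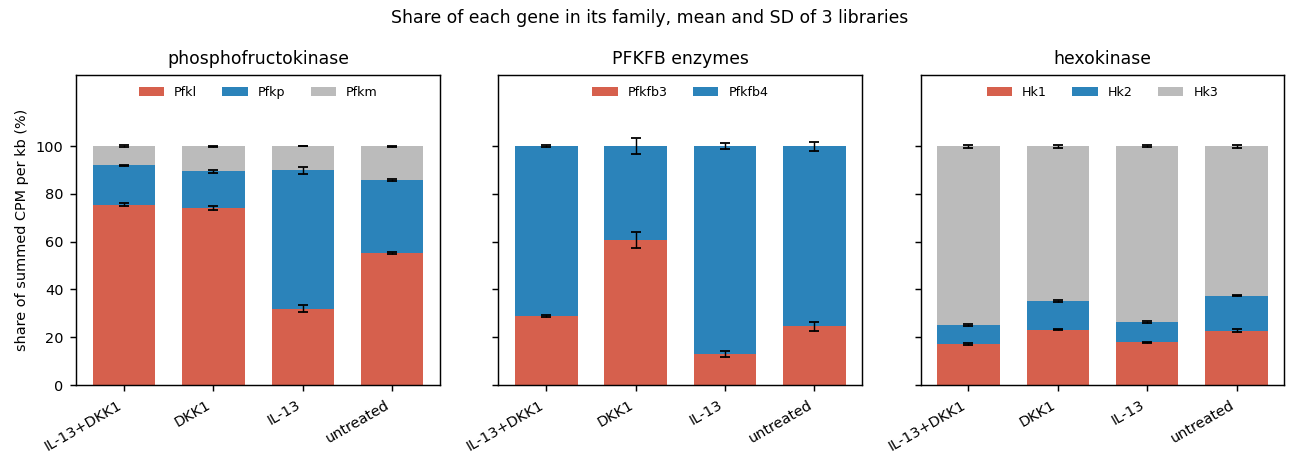
Share of each gene in the summed CPM per kilobase of its family, in percent (stacked bars), for the phosphofructokinases, PFKFB enzymes and hexokinases in the 4 groups, with the SD of 3 libraries at the top of each gene's segment. With IL-13 alone Pfkp takes 58.0% of the phosphofructokinase level, and with DKK1 alone Pfkfb3 takes 60.8% of the level of Pfkfb3 and Pfkfb4.

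Below this step the enzymes had positive log2 fold changes with DKK1 throughout. The aldolase gene Aldoa had 0.58 with DKK1 and 0.41 with DKK1 on top of IL-13. Aldoc, the minor aldolase here, had 35.6, 40.8 and 38.7 CPM with IL-13+DKK1, 80.0, 81.6 and 83.3 CPM with DKK1, 22.4, 23.6 and 25.5 CPM with IL-13, and 40.5, 44.9 and 44.6 CPM in untreated cells. It fell with IL-13+DKK1 against DKK1 (log2 fold change -1.09, SE 0.06, edgeR adjusted p = 2.89e-12), and its log2 fold changes with DKK1 were 0.91 and 0.69, past the adjusted p only. The triose phosphate isomerase gene Tpi1 had 0.98 and 0.77, and the phosphoglycerate mutase gene Pgam1 0.60 and 0.27, in the same order.

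Gapdh, the dehydrogenase that makes NADH, had 19.97, 21.6 and 21.1 CPM with IL-13+DKK1, 19.5, 20.4 and 22.0 CPM with DKK1, 11.1, 10.8 and 10.1 CPM with IL-13, and 8.85, 9.80 and 9.16 CPM in untreated cells. It rose with DKK1 (log2 fold change 1.15, SE 0.08, edgeR adjusted p = 1.21e-10) and was at 0.97 with DKK1 on top of IL-13. Pgk1, the first enzyme of the pathway that makes ATP, had 149, 142 and 145 CPM with IL-13+DKK1, 118, 121 and 129.6 CPM with DKK1, 93.2, 91.8 and 90.4 CPM with IL-13, and 61.1, 66.4 and 70.9 CPM in untreated cells. It was called with both cytokines against untreated cells (log2 fold change 1.13, SE 0.05, edgeR adjusted p = 1.27e-14), with log2 fold changes of 0.90 and 0.66 for DKK1 without and with IL-13. Eno1, the enolase, had 771, 727 and 720.4 CPM with IL-13+DKK1, 627, 615 and 685 CPM with DKK1, 477, 448 and 450.2 CPM with IL-13, and 339.6, 349.6 and 347 CPM in untreated cells. The same held for Eno1, called with both against untreated (log2 fold change 1.10, SE 0.04, edgeR adjusted p = 1.48e-15) and at 0.89 and 0.69 for DKK1.

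Pkm, the pyruvate kinase of macrophages, had 3341, 3087 and 3024 CPM with IL-13+DKK1, 2889, 2667 and 2847 CPM with DKK1, 2050.5, 1863 and 1891 CPM with IL-13, and 1687, 1665 and 1757 CPM in untreated cells. Its log2 fold changes with DKK1, 0.72 (SE 0.04, edgeR adjusted p = 2.95e-12) without and 0.70 (SE 0.04, edgeR adjusted p = 4.65e-12) with IL-13, were near one another. Ldha, which turns pyruvate into lactate, had 1299, 1243 and 1176 CPM with IL-13+DKK1, 811, 791 and 838 CPM with DKK1, 666, 654 and 664 CPM with IL-13, and 399, 394 and 371 CPM in untreated cells. The 4 groups did not overlap and stood in the order IL-13+DKK1, DKK1, IL-13 and untreated. Ldha rose with DKK1 alone (log2 fold change 1.07, SE 0.04, edgeR adjusted p = 9.64e-16) and with both against untreated cells (log2 fold change 1.68, SE 0.04, edgeR adjusted p = 6.04e-19), and passed the adjusted p only with DKK1 on top of IL-13 (0.91) and with IL-13 alone (0.77). Scaled by library size only, its log2 fold change with DKK1 alone was 0.95, under the threshold.

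Several of these genes have near-identical copies elsewhere in the mouse genome, and how reads with several alignments were counted is not given in the sources used here. Of the stretches of 50 bases in the exons of the canonical transcript, 93.0% also occur elsewhere in GRCm39 for Pgam1, 90.2% for Pgk1, 84.1% for Gapdh, 65.8% for Bnip3, 57.2% for Eno1, 38.0% for Pkm and 31.4% for Ldha. The share was 29.2% for Bnip3l, 28.1% for Tpi1, 18.9% for Gpi1, 12.8% for Aldoa and 10.9% for Higd1a, and under 3% for the other 28 genes. Gapdh, usually among the most abundant mRNAs of a cell, was at 14.7 CPM per kilobase with IL-13+DKK1 and 6.53 in untreated cells, where Tpi1, the enzyme before it, was at 318 and 165. Exons of Iffo1 on the other strand also overlap Gapdh. On the same strand, exons of Gm57854 overlap 2320 of the 5378 exon bases of Aldoa. Those of Gm49759 overlap 3157 of the 13417 of Pkm, and those of Gm26513 overlap 1848 of the 8967 of Pfkm. Overlaps on the other strand are not listed for every gene. The part of the copies in these levels was not tested, and levels of the genes with high shares are uncertain.

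The 5 transporters and regulatory kinases were all higher with DKK1 alone by the adjusted p (22.6% of all genes). Of them, 3 rose (5.18% of all genes). Slc2a1, the glucose transporter GLUT1, had 95.3, 96.7 and 94.3 CPM with IL-13+DKK1, 116, 110.0 and 119 CPM with DKK1, 64.6, 59.9 and 65.4 CPM with IL-13, and 54.5, 52.1 and 51.3 CPM in untreated cells. It rose with DKK1 alone (log2 fold change 1.13, SE 0.05, edgeR adjusted p = 5.29e-15) and was under the fold threshold with DKK1 on top of IL-13 (log2 fold change 0.59, SE 0.04, edgeR adjusted p = 2.59e-10). Slc16a3, the lactate exporter MCT4, had 160.2, 157 and 164 CPM with IL-13+DKK1, 193, 167 and 186 CPM with DKK1, 46.7, 48.7 and 45.0 CPM with IL-13, and 46.8, 42.9 and 46.8 CPM in untreated cells. It was 3.99-fold with DKK1 against untreated cells (log2 fold change 2.00, SE 0.05, edgeR adjusted p = 4.07e-18) and 3.43-fold with IL-13+DKK1 against IL-13 (log2 fold change 1.78, SE 0.05, edgeR adjusted p = 3.67e-17), while the libraries with IL-13 alone overlapped the untreated ones. Exons of Ccdc57 and Csnk1d on the other strand overlap Slc16a3 by 4981 bases, summed over both, beside its 11305 exon bases.

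Pfkfb3 makes a fructose bisphosphate, the strongest activator of phosphofructokinase. It had 60.6, 60.01 and 62.1 CPM with IL-13+DKK1, 327, 255 and 259 CPM with DKK1, 27.2, 22.2 and 25.2 CPM with IL-13, and 44.3, 44.7 and 38.1 CPM in untreated cells. The libraries with DKK1 alone stood far above all others, and those with both cytokines above the untreated ones. It rose with DKK1 alone (log2 fold change 2.72, SE 0.08, edgeR adjusted p = 4.06e-17) and with DKK1 on top of IL-13 (log2 fold change 1.29, SE 0.09, edgeR adjusted p = 3.82e-11), and fell with IL-13+DKK1 against DKK1 (log2 fold change -2.20, SE 0.08, edgeR adjusted p = 4.53e-15). Pfkfb4, a related enzyme, had log2 fold changes of 0.46 and -0.14 for DKK1 without and with IL-13. Of the level of both genes per kilobase, Pfkfb3 held 28.8% ± 0.460 with IL-13+DKK1, 60.8% ± 3.28 with DKK1, 12.96% ± 1.14 with IL-13 and 24.5% ± 1.85 in untreated cells (SD, n = 3 each). Pdk1, the kinase that keeps pyruvate out of mitochondrial oxidation, had 105, 99.3 and 94.3 CPM with IL-13+DKK1, 99.6, 98.7 and 107 CPM with DKK1, 47.1, 46.8 and 53.2 CPM with IL-13, and 57.7, 53.4 and 52.2 CPM in untreated cells. It was called with DKK1 on top of IL-13 (log2 fold change 1.02, SE 0.06, edgeR adjusted p = 1.41e-12) and was at 0.90 with DKK1 alone. The call for Pdk1 was lost, at 0.98 to 0.99, with scaling by library size only and without replicate 1 or replicate 2 of IL-13 or replicate 1 of IL-13+DKK1.

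The 11 other HIF targets were mixed. With DKK1 alone 2 rose, Bnip3 and Ddit4, and Ndrg1 fell (5.18% and 6.46% of all genes). By the adjusted p 6 were higher and 1 lower (22.6% and 23.0% of all genes). With DKK1 on top of IL-13, 3 rose, Bnip3, P4ha2 and Ddit4 (4.66% of all genes). By the adjusted p 8 were higher and 2 lower there (22.5% and 21.9% of all genes). With IL-13 alone 2 fell, Vegfa and Ndrg1 (3.49% of all genes), and 7 of the 11 were lower by the adjusted p (23.2% of all genes).

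Vegfa, the vascular growth factor and the best known target of HIF, had 33.3, 43.3 and 39.3 CPM with IL-13+DKK1, 109.5, 113 and 109 CPM with DKK1, 28.9, 28.3 and 23.3 CPM with IL-13, and 96.5, 84.4 and 78.2 CPM in untreated cells. The 6 libraries with IL-13 lay below the 6 without it. Vegfa fell with IL-13 alone (log2 fold change -1.69, SE 0.09, edgeR adjusted p = 8.1e-13) and with IL-13+DKK1 against DKK1 (log2 fold change -1.51, SE 0.08, edgeR adjusted p = 4.42e-12). With DKK1 its log2 fold change was 0.35 alone and 0.53 on top of IL-13, past the adjusted p but under the fold threshold, where those of Hif1a were 3.11 and 2.72. Ndrg1, a stress-response gene that hypoxia is known to induce, had 7.92, 6.64 and 6.27 CPM with IL-13+DKK1, 11.4, 13.4 and 11.2 CPM with DKK1, 9.93, 10.2 and 10.3 CPM with IL-13, and 35.4, 35.4 and 36.1 CPM in untreated cells. Its untreated libraries stood above all 9 others. It fell with DKK1 alone (log2 fold change -1.57, SE 0.09, edgeR adjusted p = 1.5e-12) and with IL-13 alone (log2 fold change -1.81, SE 0.09, edgeR adjusted p = 3.37e-13), and with both its log2 fold change against untreated cells was -2.36 (SE 0.09, edgeR adjusted p = 2.54e-15).

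Bnip3, a mitochondrial protein of mitophagy and cell death, had 33.4, 32.1 and 32.4 CPM with IL-13+DKK1, 35.7, 33.8 and 37.5 CPM with DKK1, 11.4, 13.01 and 11.7 CPM with IL-13, and 17.8, 16.8 and 18.2 CPM in untreated cells. It rose with DKK1 on top of IL-13 (log2 fold change 1.44, SE 0.07, edgeR adjusted p = 1.81e-13) and, just past the fold threshold, with DKK1 alone (log2 fold change 1.02, SE 0.07, edgeR adjusted p = 3.32e-11). The call with DKK1 alone was lost at 0.96 with upper-quartile factors, 0.90 with library size only, 0.98 without untreated replicate 2 and 0.99 without DKK1 replicate 3. Its relative Bnip3l had log2 fold changes of -0.01 and -0.14 for DKK1 without and with IL-13. Ddit4, an inhibitor of mTORC1 signalling also called REDD1, had 6.97, 9.80 and 8.91 CPM with IL-13+DKK1, 17.9, 17.8 and 18.4 CPM with DKK1, 3.64, 3.02 and 3.22 CPM with IL-13, and 3.32, 3.44 and 2.41 CPM in untreated cells. It was 5.91-fold with DKK1 against untreated cells (log2 fold change 2.56, SE 0.14, edgeR adjusted p = 1.27e-12), 2.61-fold with IL-13+DKK1 against IL-13 (log2 fold change 1.38, SE 0.14, edgeR adjusted p = 4.42e-08), and lower with IL-13+DKK1 than with DKK1 (log2 fold change -1.07, SE 0.13, edgeR adjusted p = 5.63e-07). Without IL-13+DKK1 replicate 1 the last value was -0.95, under the fold threshold.

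The collagen prolyl hydroxylase subunit P4ha2 had 6.38, 5.53 and 6.77 CPM with IL-13+DKK1, 5.86, 4.45 and 5.87 CPM with DKK1, 4.502, 2.69 and 1.96 CPM with IL-13, and 5.40, 4.87 and 4.39 CPM in untreated cells. It was called with DKK1 on top of IL-13 (log2 fold change 1.04, SE 0.21, edgeR adjusted p = 0.000269) and had 0.14 with DKK1 alone (edgeR adjusted p = 0.607). The call was lost at 0.80 to 0.99 with library size only and without IL-13 replicate 2 or 3 or IL-13+DKK1 replicate 3. The related subunit P4ha1 had 0.34 and 0.96 for DKK1 without and with IL-13, the mitochondrial protein gene Higd1a 0.81 and 0.87, and Mxi1, an antagonist of MYC, 0.38 and 0.58, each past the adjusted p. The histone demethylase Kdm3a had 0.06 and 0.15. Ankrd37, at 1.504 to 2.32 CPM on average in the 4 groups, passed the adjusted p in none of the 5 comparisons or the interaction, and is overlapped on the other strand by exons of Ufsp2 and Lrp2bp.

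The interaction, the effect of DKK1 with IL-13 minus its effect without IL-13, tested whether IL-13 changed the response to DKK1. It was called positive for 2 of 40 genes and negative for 3, where 2.12% and 2.50% of all genes were called, and 22 of 40 passed the adjusted p alone in either direction (26.3% of all genes). Pfkfb3 (log2 difference -1.43, SE 0.12, edgeR adjusted p = 6.53e-09), Ddit4 (log2 difference -1.18, SE 0.20, edgeR adjusted p = 0.00012) and Pfkp (log2 difference -1.08, SE 0.06, edgeR adjusted p = 2.61e-11) were negative. Egln3 (log2 difference 1.27, SE 0.29, edgeR adjusted p = 0.00192) and Ndrg1 (log2 difference 1.02, SE 0.13, edgeR adjusted p = 3.44e-06) were positive. The called value of Ndrg1 was 0.92 to 1.00 and no longer above the threshold with DESeq2, with DESeq2 size factors in edgeR, and without IL-13 replicate 1, DKK1 replicate 1, DKK1 replicate 3 or IL-13+DKK1 replicate 1. For Hif1a the interaction was -0.39 (SE 0.08, edgeR adjusted p = 0.000467), past the adjusted p and small beside either effect. Among the 16 enzymes 10 passed the adjusted p, with a median of -0.18.

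**Figure D5:**
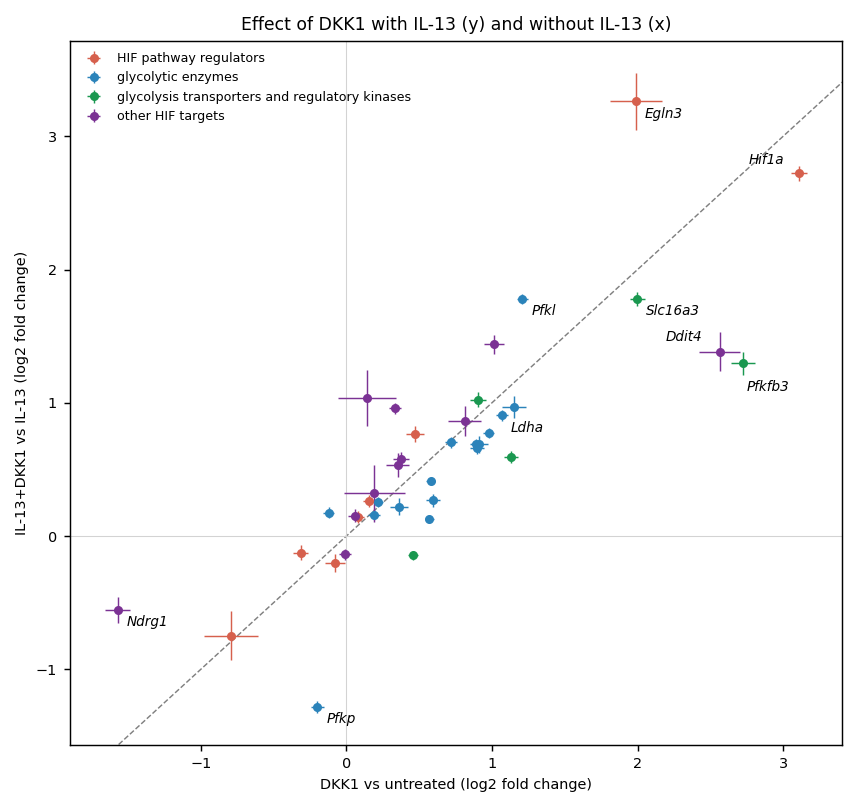
Log2 fold change with DKK1 on top of IL-13 (y axis) against that with DKK1 alone (x axis) for the 40 genes, coloured by role, with the SE of each as bars and the dashed line where both are equal. Hif1a lies at 3.11 and 2.72, most glycolytic enzymes lie between 0 and 1.21 on the x axis, and Egln3, Ndrg1, Pfkfb3, Ddit4 and Pfkp lie furthest from the line.

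Further genes of these pathways, from lists drawn up by function but with earlier results of these data known, were read in the same fit. Of 28 more genes of glycolysis, lactate and pyruvate that were tested, 4 rose and 1 fell with DKK1 alone, where 5.18% and 6.46% of all genes were called. By the adjusted p alone 14 were higher and 2 lower, against 22.6% and 23.0% of all genes. With DKK1 on top of IL-13, 2 rose and 0 were called lower (4.66% and 6.10% of all genes). There 13 were higher and 7 lower by the adjusted p alone (22.5% and 21.9% of all genes). Beside the 0 lower, edgeR gave 8 at an unadjusted p under 0.05 (24.6% of all genes), and DESeq2 also called 0. Gpd2, which passes electrons of cytosolic NADH to the respiratory chain, averaged 45.3 ± 1.56 CPM with DKK1 and 19.7 ± 0.944 CPM in untreated cells (log2 fold change 1.20, SE 0.07, edgeR adjusted p = 2.57e-12). The glucose transporter Slc2a3 averaged 7.52 ± 0.481 CPM with DKK1 and 16.8 ± 0.0198 CPM in untreated cells and fell (log2 fold change -1.16, SE 0.11, edgeR adjusted p = 7e-09), in the other direction from Slc2a1. Pgam2, the muscle phosphoglycerate mutase, rose with DKK1 alone (1.66) and on top of IL-13 (1.67), as did the lactate dehydrogenase gene Ldhd (1.64 and 1.17), and Pdk3, a relative of Pdk1, rose with DKK1 alone (1.05). Ldhd was low, at 0.529 to 1.68 CPM on average in the 4 groups, and Pgam2 was at 1.25 to 6.53 CPM. Exons of Dbnl on the other strand cover all 989 exon bases of Pgam2 and those of Znrf1 cover 2246 of the 5394 of Ldhd, so reads of these pairs cannot be told apart where strand was not counted. The glucose transporter Slc2a6 rose with IL-13 alone (1.05) and had a called interaction (-1.06).

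Of 32 more genes known to be induced by hypoxia, 5 rose and 4 fell with DKK1 alone (5.18% and 6.46% of all genes), with 13 higher and 13 lower by the adjusted p alone (22.6% and 23.0% of all genes). With DKK1 on top of IL-13, 7 rose and 3 fell (4.66% and 6.10% of all genes), with 15 higher and 8 lower by the adjusted p alone (22.5% and 21.9% of all genes). The stress-induced gene Ier3 averaged 307 ± 24.3 CPM with IL-13+DKK1, 193 ± 10.8 CPM with DKK1, 60.2 ± 2.84 CPM with IL-13 and 24.1 ± 2.05 CPM in untreated cells (SD, n = 3 each). The cytokine gene Mif rose with DKK1 alone (log2 fold change 1.27, SE 0.04, edgeR adjusted p = 5.44e-16) and on top of IL-13 (log2 fold change 1.15, SE 0.04, edgeR adjusted p = 1.69e-15), and so did the glycogen synthase Gys1 (1.28 and 1.09) and the mitochondrial adenylate kinase Ak4 (2.34 and 1.88). Angptl4, an inhibitor of lipoprotein lipase, fell in both (-1.91 and -2.47), and the clock repressor Bhlhe41 fell with DKK1 alone (-1.23). With IL-13 alone the transferrin receptor Tfrc (2.51), the related repressor Bhlhe40 (2.21), Ier3 (1.33) and the caveolar gene Cavin1 (1.34) rose. Bhlhe40 averaged 36.1 CPM with IL-13+DKK1 against 96.5 CPM with IL-13. Cavin1 averaged 2.20 against 7.51 CPM and Tfrc 315 against 527 CPM in the same groups. Higher with IL-13+DKK1 than with IL-13 were Plod1, at 570 against 273 CPM, and Ero1a, at 77.6 against 38.1 CPM.

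Of 15 more regulators and cofactors of HIF, 0 were called in either comparison of DKK1 by edgeR or by DESeq2. In edgeR, 5 were higher and 4 lower at an unadjusted p under 0.05 with DKK1 alone, where 25.0% and 26.5% of all genes were, and 5 and 5 with DKK1 on top of IL-13 (25.1% and 24.6% of all genes). Cited2, which competes with HIF-1 for its coactivator, averaged 69.6 ± 2.75 CPM with IL-13+DKK1, 86.9 ± 1.60 CPM with DKK1, 83.9 ± 3.38 CPM with IL-13 and 169 ± 2.66 CPM in untreated cells (SD, n = 3 each). It fell with IL-13 alone (log2 fold change -1.01, SE 0.04, edgeR adjusted p = 1.39e-14), and with DKK1 alone its value was just under the fold threshold (log2 fold change -0.96, SE 0.04, edgeR adjusted p = 1.37e-14). Of 8 genes of the pentose phosphate pathway, which branches off at the first sugar phosphate, 0 were called by edgeR or DESeq2 in either comparison of DKK1, with 3 higher and 4 lower at an unadjusted p under 0.05 with DKK1 alone and 2 and 4 on top of IL-13 in edgeR, beside the same shares of all genes. Taldo1, the transaldolase, fell with both cytokines against untreated cells (log2 fold change -1.22, SE 0.04, edgeR adjusted p = 1.68e-17).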

How the data were processed

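Bulk RNA seq was analysed in 12 BMDM libraries. Reads were quality-checked (FastQC 0.11.9) and mapped to GRCm39 (STAR 2.7.6a) by the authors, who summed them over genes by featureCounts. The deposited values are raw counts, with no gene whose highest library was under 11. For featureCounts, no version, annotation, strand or multi-mapping setting is stated in the sources used here. Of the deposited counts from 1 to 20, 76.0% were even numbers, against 51.6% above 1000, so the number of independent reads behind low counts is unknown. The sources do not say from how many mice the replicates came, so p-values measure the spread between these libraries. No replicates were copies of one another (chi-square per gene 4.31 to 9.93).

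From the deposited counts, genes were filtered (edgeR filterByExpr, minimum count 10, minimum total 15), scaled by TMM (factors 0.945 to 1.043) and fitted with 1 mean per group over all 12 libraries by the quasi-likelihood test of edgeR 4.0.16 in R 4.3.3, with Benjamini-Hochberg adjustment over 16306 genes (biological coefficient of variation 0.0612). The thresholds were those of the study, which used DESeq2. The SE of a log2 fold change is its absolute value divided by the square root of F. Gene positions, canonical transcript lengths and promoter windows came from GENCODE vM39 on GRCm39, which held 99.6% of the gene IDs. The code was tested on simulated counts.

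The 40 genes and the further lists were chosen with earlier results of these data known. Full values are given for genes called in any comparison and for Hif1a, Epas1, Arnt, Vhl, Egln1, Egln2, Hif1an, Ldha, Pkm, Slc2a1, Gapdh, Pgk1 and Vegfa, and from each further list at most 6 called genes per comparison qualify, smallest adjusted p first. Sequences are shown for at most 6 genes called the same way by DKK1 with and without IL-13. Alternatives were DESeq2 1.42.0, other scalings and filters, the replicate block, fits of the compared groups only and leaving out each library.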

Additional observations from a re-analysis of the deposited data

Results flagged for a closer look

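For 5 of the 40 genes the effect of DKK1 differed with and without IL-13 in a test of the difference itself (the interaction in edgeR's quasi-likelihood test, adjusted over all genes, with an absolute log2 difference above 1). Egln3 was raised more by DKK1 in the presence of IL-13, by 3.26 against 1.99 on the log2 scale (log2 difference 1.27, SE 0.29, edgeR adjusted p = 0.00192). Its level with IL-13 alone was 0.834 ± 0.337 CPM (SD, n = 3). Pfkfb3 was raised less in the presence of IL-13, by 1.29 against 2.72 (log2 difference -1.43, SE 0.12, edgeR adjusted p = 6.53e-09), and so was Ddit4, by 1.38 against 2.56 (log2 difference -1.18, SE 0.20, edgeR adjusted p = 0.00012). Pfkp was at -1.28 with IL-13 present and -0.20 without (log2 difference -1.08, SE 0.06, edgeR adjusted p = 2.61e-11). Ndrg1 was at -0.55 with IL-13 present and -1.57 without (log2 difference 1.02, SE 0.13, edgeR adjusted p = 3.44e-06). All groups had 3 libraries, too few for a search for single libraries apart from the rest.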

How the results depend on the processing

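Of 45 called results for the 40 genes, 39 were called under every alternative run for them (19, or 18 for the 5 interaction results, which cannot be fitted on 2 groups), and 6 missed the fold threshold, never the adjusted p, under at least 1, with their values given beside each gene. No called result changed sign. With library size only, 4 calls were lost and the median gene shifted by -0.119 with DKK1 alone. By the adjusted p alone, 29 genes were higher and 5 lower with DKK1, 32 and 6 with IL-13+DKK1 against IL-13, 11 and 17 with IL-13, 7 and 17 with IL-13+DKK1 against DKK1, 24 and 9 with IL-13+DKK1 against untreated cells, and 8 and 14 in the interaction. The interaction was called positive for 1 gene in place of 2 with DESeq2 and with DESeq2 size factors in edgeR, beside 3 negative, and for 1 to 2 when each library was left out in turn (1 without DKK1 replicate 1 or 3 or without IL-13+DKK1 replicate 1, by the loss of Ndrg1). Libraries with the same replicate number were at most weakly correlated in their deviations (0 of 18 same-number pairs over 0.1, range -0.064 to 0.082). The median was 0.02 for these pairs and -0.011 for other pairs. Still, 10 of 12 libraries correlated best with a library of their own number. Whether the numbers mark a shared batch cannot be told from these values. A replicate block left the counts with DKK1 alone at 10 higher and 1 lower and lost no call. Levels under a few CPM, as for Egln3 with IL-13, rest on low counts.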
